A study of Homo sapiens with 8 samples.

Results

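The genes described here encode laminin chains and nidogens, with their mRNA measured in cultured human fibroblasts: LAMA2, LAMA4, LAMA5, LAMB1, LAMB2, LAMC1, NID1 and NID2. They were taken by gene symbol from a list chosen with earlier results of these data known, and are 8 of 23204 genes in the expression tables. The expression values come from RNA sequencing of polyadenylated RNA in 2 fibroblast lines, here line 1 and line 2, which the labels describe as population controls. Each line was transfected by lipofection with a control (non-targeting) siRNA or with an siRNA against SUPT4H1, with 2 replicates of each treatment, so that 4 control siRNA samples stood against 4 SUPT4H1 siRNA samples. All groups received an siRNA and the transfection reagent, and no untransfected sample was analysed here. The product of SUPT4H1 is SPT4, the partner of SPT5 in DSIF, an elongation factor of RNA polymerase II.

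Laminins are heterotrimers of an alpha, a beta and a gamma chain that assemble into a network on the cell surface and organise the basement membrane. Nidogens bind the short arm of the laminin gamma chain and also collagen IV and perlecan, and so link the laminin network to the collagen network. Fibroblasts make laminins and nidogens for basement membranes at tissue borders, where integrins and dystroglycan on neighbouring cells bind the alpha chains.

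The nidogen pair and the beta chain pair, whose values are set side by side in what follows, are shown with the 250 bases before the transcription start. The sequences are RefSeq's for the assembly GRCh38.p14, where all 8 genes had an entry, and they are written 5′ to 3′ in the direction of transcription. Capitals mark matches on either strand to a GC box (GGGCGG) or a CCAAT box (CCAAT).
NID1, minus strand, chr1:236065091-236065340: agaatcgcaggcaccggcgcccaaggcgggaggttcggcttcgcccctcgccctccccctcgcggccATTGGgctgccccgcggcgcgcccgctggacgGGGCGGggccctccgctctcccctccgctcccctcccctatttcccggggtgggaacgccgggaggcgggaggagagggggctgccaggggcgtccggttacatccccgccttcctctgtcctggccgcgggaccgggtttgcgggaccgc
NID2, minus strand, chr14:52069060-52069309: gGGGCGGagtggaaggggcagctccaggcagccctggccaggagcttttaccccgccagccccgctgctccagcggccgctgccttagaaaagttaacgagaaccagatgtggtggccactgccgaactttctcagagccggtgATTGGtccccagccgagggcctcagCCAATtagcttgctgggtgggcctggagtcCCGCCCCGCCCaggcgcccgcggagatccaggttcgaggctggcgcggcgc
LAMB1, minus strand, chr7:108003162-108003411: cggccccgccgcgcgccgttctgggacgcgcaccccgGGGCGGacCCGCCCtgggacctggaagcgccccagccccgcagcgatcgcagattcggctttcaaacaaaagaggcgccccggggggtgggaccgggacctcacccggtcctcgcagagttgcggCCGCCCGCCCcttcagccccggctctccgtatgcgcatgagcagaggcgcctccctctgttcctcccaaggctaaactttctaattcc
LAMB2, minus strand, chr3:49133051-49133300: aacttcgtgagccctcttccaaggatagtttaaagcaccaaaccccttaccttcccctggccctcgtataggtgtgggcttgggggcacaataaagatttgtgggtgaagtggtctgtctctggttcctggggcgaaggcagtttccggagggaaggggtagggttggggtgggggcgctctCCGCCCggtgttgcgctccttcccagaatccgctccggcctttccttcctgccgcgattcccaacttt

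A GC box, the letters that SP1-family factors bind, was found in 6 of the 8 windows, counting both strands and overlapping matches separately. Among the windows of 27305 genes of the same length, 42.3% held it. The windows of LAMB1, NID2, NID1 and LAMB2 had 4, 3, 1 and 1 matches, LAMA5 and LAMC1 had 5 and 3, and LAMA2 and LAMA4 had 0. A CCAAT box was found in 33.0% of all windows and in 2 of the 8, those of both nidogen genes, with 1 match in NID1 and 2 in NID2. A TATA box (TATAAA) was found in 11.1% of all windows and an AP-1 element (TGANTCA) in 6.6%, and neither in any of the 8. GC content was 76.4% for NID1, 68.0% for NID2, 70.4% for LAMB1 and 58.4% for LAMB2, against a median of 58.0% over all windows. These matches describe the letters of the windows and nothing about binding.

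The targeted transcript checks the labels. With control siRNA, SUPT4H1 was at 25.6 and 25.6 FPKM in line 1 and at 26.2 and 28.3 FPKM in line 2. With SUPT4H1 siRNA it was at 1.37 and 1.43 FPKM in line 1 and at 1.69 and 1.74 in line 2. FPKM are fragment counts scaled by transcript length and by the mapped fragments of the library, so levels of different genes can be compared per length. The change was -3.42 (SE 0.03) on the log2(FPKM + 1) scale, with an adjusted p of 3.90e-11 in limma. Between 11292 and 11410 genes reached 1 FPKM in a sample, and FPKM summed to between 287894 and 305132. The number of fragments is not given in the sources used here. The deposited 95% intervals, given for each sample by itself, had half-widths of 0.93 to 1.24% of the value for LAMB1 and 8.84 to 14.99% for LAMA5. Which errors they cover is not given in the sources used here.

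In the control samples the beta and gamma chains, LAMA4 and NID1 were abundant transcripts, and LAMA5 was barely detected. LAMB2 was at 156 ± 6.57 FPKM (mean ± SD, n = 4), rank 255 of the 11414 genes whose control mean was 1 FPKM or more. LAMB1 was at 143 ± 24.7 FPKM, LAMC1 at 120 ± 2.86 and LAMA4 at 105 ± 3.38 (SD, n = 4), at ranks 294, 378 and 431. NID1 was at 55.9 ± 12.0 FPKM and NID2 at 16.5 ± 5.10 (SD, n = 4), at ranks 838 and 3096. LAMA5 was at 1.14 ± 0.42 FPKM (SD, n = 4), rank 11206. LAMA2 was at a mean of 13.3 FPKM, rank 3829, with a limit on its line 1 values given below. Neighbours in this order that overlapped among the 4 control samples were LAMB2 and LAMB1, LAMB1 and LAMC1, and NID2 and LAMA2. The 8 genes together held 0.19 to 0.23% of all FPKM in a sample.

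**Figure D1:**
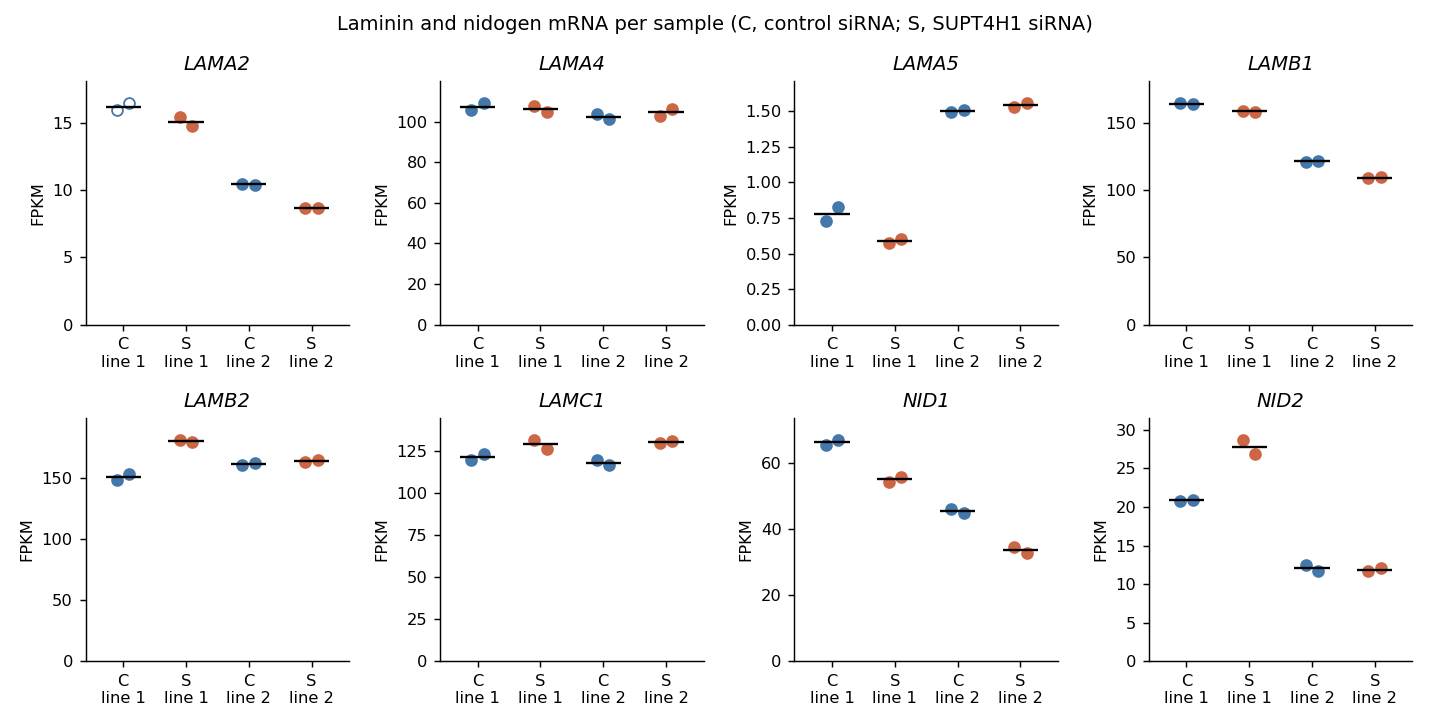
FPKM of each gene in every sample (y axis, from 0), grouped by line and siRNA on the x axis, with points for samples and lines for the mean of 2. Open points mark the LAMA2 values with the status FAIL. NID1 is lower with SUPT4H1 siRNA in both lines, and NID2 and LAMB2 are higher in line 1.

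The question of the main comparison was which of these genes differed between SUPT4H1 siRNA and control siRNA once the lines were allowed their own levels. NID1 and LAMB1 fell, LAMC1 and LAMB2 rose, and the tests of NID2, LAMA4 and LAMA5 did not pass the threshold. Thus 4 of the 7 genes tested were called, 2 in each direction, at an adjusted p under 0.05 over 11434 genes. Of all genes tested, 42.1% were called in the same fit, 26.9% as rising and 15.2% as falling. The median change of the 7 genes was 0.008 on the log2 scale, beside 0.031 for all genes tested. Without the line as a block, as the series design groups the samples, 0 of the 7 genes were called, 2 had an unadjusted p under 0.05, and 5.33% of all genes were called. When FPKM were scaled by median ratios, the split over all genes moved from 3072 rises and 1737 falls to 2316 and 2310. In bulk RNA, fewer cells that express a gene and less RNA per cell cannot be told apart. The labels do not say that replicates were grown apart, so the spread behind each p-value is that of these libraries and can be technical.

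NID1, one of the linkers between laminin and collagen IV, lies at chr1:236139132-236228481 (hg19, the build of the expression tables). Its line 1 values were 65.6 and 67.1 FPKM with control siRNA and 54.4 and 55.9 with SUPT4H1 siRNA. Line 2 had 46.1 and 44.9 FPKM with control siRNA and 34.7 and 32.7 with SUPT4H1 siRNA. Both SUPT4H1 siRNA samples lay below both control samples in each line, and the line 1 SUPT4H1 siRNA samples lay above the line 2 controls. NID1 changed by -0.34 (SE 0.04) on the log2(FPKM + 1) scale, with an adjusted p of 1.52e-04 in limma with line as block. The adjusted p was 0.459 without the block. The level was 83.1% of control in line 1 and 74.0% in line 2.

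NID2, the other nidogen, lies at chr14:52471520-52535946 (hg19). It was at 20.8 and 21.0 FPKM in line 1 control samples and at 28.7 and 26.8 with SUPT4H1 siRNA. In line 2 it was at 12.4 and 11.7 FPKM with control siRNA and at 11.8 and 12.1 with SUPT4H1 siRNA. The SUPT4H1 siRNA samples were the higher ones in line 1, and the groups overlapped in line 2. Over both lines the change was 0.19 (95% interval 0.02 to 0.36) with an adjusted p of 0.0685 in limma, which did not pass. It passed without the control replicate 1 of line 2 (adjusted p 0.0286 in limma) and without the SUPT4H1 siRNA replicate 1 of line 2 (0.0407).

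As a share of the summed nidogen FPKM, NID2 made up 24.1 and 23.8% in line 1 control samples and 34.6 and 32.5% with SUPT4H1 siRNA. In line 2 the share was 21.2 and 20.7% with control siRNA and 25.3 and 27.0% with SUPT4H1 siRNA. All 4 SUPT4H1 siRNA samples lay above all 4 control samples, in line 2 with NID2 itself near its control level. Relative to LAMC1, whose product carries the nidogen-binding arm, the summed nidogens were at 0.722 and 0.712 in line 1 controls and at 0.63 and 0.653 with SUPT4H1 siRNA. In line 2 that ratio was 0.489 and 0.484 with control siRNA and 0.357 and 0.34 with SUPT4H1 siRNA. The shares and ratios are descriptions and were not tested.

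**Figure D2:**
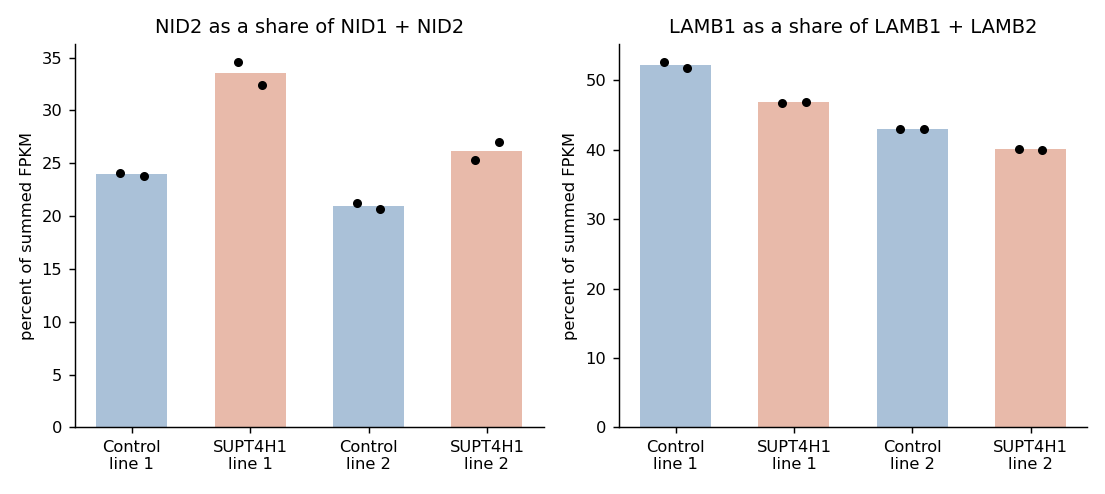
NID2 as a percentage of NID1 plus NID2 FPKM (left) and LAMB1 as a percentage of LAMB1 plus LAMB2 FPKM (right), with a point for each sample and bars for the mean of 2. The NID2 share is higher and the LAMB1 share lower with SUPT4H1 siRNA in both lines.

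LAMB1, the beta chain found in most laminins, lies at chr7:107564246-107643804 (hg19). It was at 164 and 164 FPKM in line 1 control samples and at 159 and 158 with SUPT4H1 siRNA. Line 2 had 121 and 122 FPKM with control siRNA and 109 and 109 with SUPT4H1 siRNA. The SUPT4H1 siRNA samples were the lower ones in each line, by less than the distance between the lines. The change was -0.10 (SE 0.03) on the log2(FPKM + 1) scale, with an adjusted p of 0.0144 in limma with line as block and 0.826 without it.

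LAMB2, the beta chain known from the neuromuscular junction and the kidney glomerulus, lies at chr3:49158547-49170599 (hg19). It was at 148 and 153 FPKM in line 1 control samples and at 181 and 179 with SUPT4H1 siRNA. Line 2 had 161 and 162 FPKM with control siRNA and 163 and 164 with SUPT4H1 siRNA. The SUPT4H1 siRNA samples stood above the controls in line 1, and all 4 line 2 samples lay close together. The change over both lines was 0.14 (SE 0.05), with an adjusted p of 0.0354 in limma with line as block and 0.237 without it. This call was lost without any 1 of the 4 line 1 samples, with adjusted p between 0.0927 and 0.102 in limma, and with scaling by median ratios (0.11).

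LAMB1 was thereby a smaller share of the summed beta chain FPKM with SUPT4H1 siRNA. The share was 52.6 and 51.8% in line 1 control samples and 46.8 and 46.9% with SUPT4H1 siRNA. In line 2 it was 42.9 and 42.9% with control siRNA and 40.1 and 40.0% with SUPT4H1 siRNA. The SUPT4H1 siRNA samples were below the controls in each line, but those of line 1 lay above the controls of line 2.

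LAMC1, the gamma chain that most laminins share, lies at chr1:182992595-183114727 (hg19). It was at 120 and 124 FPKM in line 1 control samples and at 132 and 127 with SUPT4H1 siRNA. In line 2 it was at 120 and 117 FPKM with control siRNA and at 130 and 132 with SUPT4H1 siRNA. All 4 SUPT4H1 siRNA samples exceeded all 4 controls. The change was 0.11 (SE 0.03), with an adjusted p of 0.00812 in limma with line as block and 0.164 without it.

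Among the alpha chains LAMA2, LAMA4 and LAMA5, LAMA4 made up 86.3 to 91.2% of the summed FPKM in every sample. The lowest shares, 86.4 and 86.3%, were those of the line 1 controls, where LAMA2 has the limit given below. LAMA4, the alpha chain of mesenchymal and vascular laminins, lies at chr6:112429134-112575917 (hg19). It was at 106 and 109 FPKM in line 1 control samples, 108 and 105 in line 1 with SUPT4H1 siRNA, 104 and 101 in line 2 controls and 103 and 106 in line 2 with SUPT4H1 siRNA. The groups overlapped in both lines. The change was 0.01 (95% interval -0.05 to 0.07), with an adjusted p of 0.837 in limma, and its sign turned with scaling by median ratios (-0.03).

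LAMA5, the alpha chain of many epithelial and vessel laminins, lies at chr20:60884116-60942368 (hg19). It was at 0.726 and 0.826 FPKM in line 1 control samples, 0.571 and 0.601 in line 1 with SUPT4H1 siRNA, 1.50 and 1.51 in line 2 controls and 1.53 and 1.56 in line 2 with SUPT4H1 siRNA. It reached the mean of 1 FPKM needed for testing only through its higher level in line 2. The change over both lines was -0.07 (95% interval -0.19 to 0.05), with an adjusted p of 0.312 in limma.

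LAMA2, the alpha chain of muscle and peripheral nerve laminin, lies at chr6:129204286-129837710 (hg19). In the 2 control samples of line 1 it was listed at 15.9 and 16.4 FPKM with the status FAIL and an interval that does not hold the value, so it was left out of the main test. It was at 15.4 and 14.7 FPKM in line 1 with SUPT4H1 siRNA, 10.5 and 10.4 in line 2 controls, and 8.64 and 8.63 in line 2 with SUPT4H1 siRNA. Where all 4 values have the status OK, in line 2, the SUPT4H1 siRNA samples were the lower ones. There the change was -0.25 (SE 0.04), with an adjusted p of 0.00176 in limma on the line 2 samples only. With rows of any status kept, it was -0.17 (SE 0.04) over both lines, with an adjusted p of 0.00448. Both of these fits were chosen after seeing the data.

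The comparison within each line asked whether line 1 and line 2 moved the same way. In line 1, 3 of the 7 genes were called, beside 30.7% of all genes: LAMB2 rose by 0.26 (SE 0.03), NID2 rose by 0.39 (SE 0.04) and NID1 fell by 0.26 (SE 0.03). Their adjusted p-values in limma were 9.10e-05, 9.83e-05 and 4.18e-04. In line 2, 3 of the 7 were also called, beside 42.9% of all genes: LAMC1 rose by 0.14 (SE 0.03), NID1 fell by 0.42 (SE 0.03) and LAMB1 fell by 0.15 (SE 0.02). Their adjusted p-values in limma were 0.00467, 1.15e-05 and 8.55e-04. NID1 was thus called in each line by itself.

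The change itself differed between the lines for NID2 and LAMB2. The line 2 change minus the line 1 change was -0.41 (SE 0.06) for NID2 and -0.24 (SE 0.04) for LAMB2 on the log2 scale. The adjusted p-values of these differences in limma were 0.00215 and 0.00388, and 9.85% of all genes were called in this comparison. For NID1 the difference was -0.16 (95% interval -0.27 to -0.05; adjusted p 0.0723) and for LAMB1 -0.10 (-0.18 to -0.02; 0.108). For LAMC1 it was 0.06 (95% interval -0.04 to 0.16; adjusted p 0.478), so a difference between the lines was not shown for these genes.

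**Figure D3:**
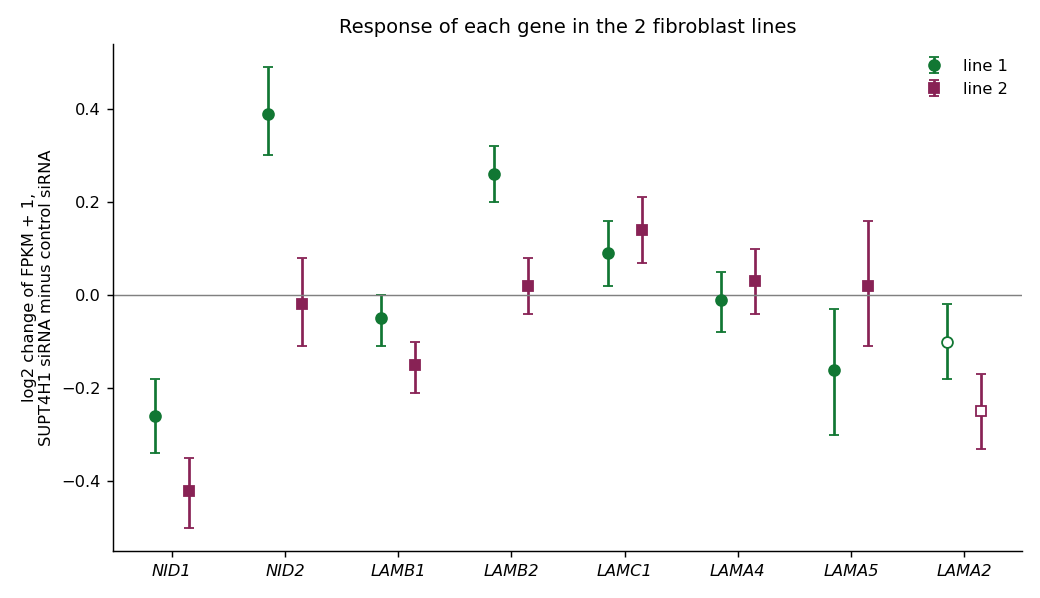
Change of each gene (x axis) in line 1 (circles) and line 2 (squares) on the log2(FPKM + 1) scale, SUPT4H1 siRNA minus control siRNA, with 95% intervals from limma. Open symbols mark LAMA2, from the fit with rows of any status. NID1 lies below 0 in both lines, while NID2 and LAMB2 lie above 0 in line 1 and near 0 in line 2.

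The lines also differed in their levels with control siRNA. Among control siRNA samples 4 of the 6 tested genes other than LAMA5 were called between the lines, beside 58.0% of all genes, a comparison of these 2 lines only. NID2, NID1 and LAMB1 were lower in line 2, by -0.74 (SE 0.04), -0.53 (SE 0.03) and -0.43 (SE 0.02) on the log2 scale. LAMB2 was higher in line 2 by 0.10 (SE 0.03). The adjusted p-values in limma were 2.36e-07, 7.88e-07, 2.61e-07 and 0.00878, and for LAMB2 0.0868 without the control replicate 1 of line 1. LAMA4 (-0.07, adjusted p 0.0824 in limma) and LAMC1 (-0.04, 0.294) did not pass. LAMA5, which passed the filter through line 2, is given by its levels above, with no test between the lines. The order of the beta chains accordingly differed: LAMB1 was above LAMB2 in the control samples of line 1 and below it in those of line 2.

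The 5 other laminin chain genes described here were at low levels. LAMB3, the beta chain of the epidermal anchoring laminin, was the one of them above 1 FPKM on average. It was at 2.33 and 2.48 FPKM in line 1 control samples, 4.50 and 4.12 with SUPT4H1 siRNA, 1.42 and 1.65 in line 2 controls, and 2.70 and 2.67 with SUPT4H1 siRNA. All 4 SUPT4H1 siRNA samples were above all controls, and LAMB3 rose by 0.59 (SE 0.05; adjusted p 2.31e-05 in limma with line as block, 0.109 without it). LAMA3, whose product joins that of LAMB3 in that laminin, stayed below 1 FPKM in every sample. It had a mean of 0.086 FPKM in control and 0.184 in SUPT4H1 siRNA samples, with values higher without overlap in each line. With no filter on FPKM its adjusted p in limma was 0.0364. The deposited intervals of LAMA3 had half-widths of 23.3 to 43.93% of the value. Those of the siRNA groups overlapped in line 1 and not in line 2. In line 1, replicate 1 had 0.0521 to 0.122 FPKM with control siRNA and 0.0601 to 0.1297 with SUPT4H1 siRNA. LAMC3 had means of 0.118 and 0.055 FPKM, with values lower without overlap in each line (adjusted p 0.00115 in limma with no filter). Its deposited intervals had half-widths of 32.06 to 89.44% of the value. Those of the siRNA groups overlapped in line 1 and, except between the replicates 2, in line 2. LAMA1 had means of 0.262 and 0.16 FPKM and LAMB4 of 0.004 and 0.015, and neither passed with no filter (adjusted p 0.0868 and 0.241 in limma).

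Of 25 other basement membrane genes, 14 were tested, and 8 fell and 3 rose with line as block, where 15.2% of all genes fell and 26.9% rose. Within line 1, 5 fell and 6 rose, where 1330 of all 11434 genes fell and 2175 rose. Within line 2, 8 fell and 3 rose, where 1817 of all genes fell and 3085 rose. Their median change was -0.113 on the log2 scale beside 0.031 for all genes, and 0 of the 14 were called without the block, with 1 at an unadjusted p under 0.05. COL4A1 and COL4A2, the chains of the main collagen IV network, fell by 0.10 and 0.13 (adjusted p 0.0273 and 0.0316 in limma). HSPG2, which encodes perlecan, fell by 0.14 (SE 0.03) from 74.2 to 67.1 FPKM. PXDN, the peroxidase that cross-links collagen IV, fell by 0.27 (SE 0.02) from 92.8 to 76.2 FPKM. COL18A1, the source of endostatin, fell by 0.14 (SE 0.04), and NTN1, a guidance netrin, fell by 0.27 (SE 0.07). The calls of COL4A1 and COL4A2 were each lost in 6 of 8 fits without 1 sample, with adjusted p up to 0.0782 and 0.085. The COL4A1 call held without replicate 2 of either line 2 group, and the COL4A2 call without control replicate 2 or SUPT4H1 siRNA replicate 1 of line 2. That of COL18A1 was lost without any 1 of the line 2 samples (0.0595 to 0.0658).

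The matrix genes COL15A1 and SMOC2 had larger changes than these. COL15A1, a collagen of the basement membrane zone, was at 230 and 226 FPKM in line 1 controls, 182 and 183 with SUPT4H1 siRNA, 36.0 and 34.2 in line 2 controls, and 8.09 and 8.60 with SUPT4H1 siRNA. It fell by 1.13 (SE 0.27; adjusted p 0.00895 in limma) over both lines. SMOC2, a calcium-binding matrix protein related to SPARC, was at 9.68 and 9.23 FPKM in line 1 controls, 2.51 and 2.66 with SUPT4H1 siRNA, 1.33 and 1.36 in line 2 controls, and 0.368 and 0.415 with SUPT4H1 siRNA. It was at 27.3% of control in line 1 and 29.2% in line 2, and fell by 1.15 (SE 0.14; adjusted p 2.28e-04 in limma). AGRN (agrin, which binds laminin and dystroglycan), NTN4 (a netrin that binds the laminin gamma chain) and MATN2 (a matrilin) rose by 0.14, 0.35 and 0.35. SPARC, the most abundant gene of the list, was at 1224 FPKM in control and 1226 in SUPT4H1 siRNA samples on average (change 0.02, adjusted p 0.78 in limma).

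**Figure D4:**
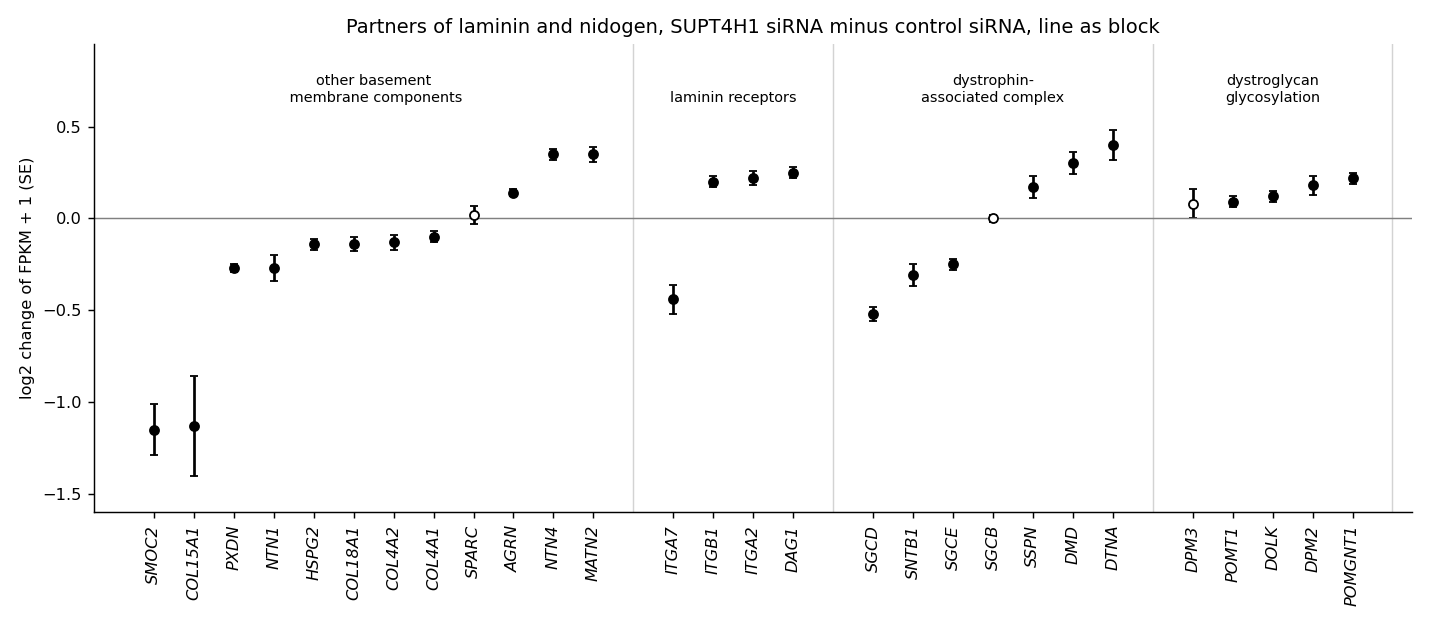
Change of the named partner genes on the log2(FPKM + 1) scale with line as block (y axis), grouped by list, with bars for the SE. Filled points passed the threshold; open points did not. Most named basement membrane genes lie below 0, and ITGB1, ITGA2 and DAG1 lie above it.

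Of 11 laminin receptor genes 9 were tested, and 3 rose and 1 fell (median change 0.147), a share called of 44.4% beside 42.1% of all genes. In line 1, 3 rose and 3 fell (median -0.014), and in line 2, 5 rose and 1 fell (median 0.225). The share called was 66.7% in each line, beside 30.7% of all genes in line 1 and 42.9% in line 2. The change differed between the lines for 4 of the 9, beside 9.85% of all genes. DAG1, which encodes dystroglycan, the receptor for laminin alpha chain domains, was at 25.8 and 25.5 FPKM in line 1 controls and at 30.7 and 29.3 with SUPT4H1 siRNA. In line 2 it was at 25.2 and 25.7 FPKM with control siRNA and at 31.3 and 30.7 with SUPT4H1 siRNA. All 4 SUPT4H1 siRNA samples were higher, and DAG1 rose by 0.25 (SE 0.03; adjusted p 1.10e-04 in limma, and 0.00798 without the block). ITGB1, the beta subunit of most laminin-binding integrins, rose by 0.20 (SE 0.03) from 375 to 432 FPKM, and ITGA2, a collagen and laminin receptor subunit, rose by 0.22 (SE 0.04). ITGA7, a laminin receptor subunit of muscle, fell by 0.44 (SE 0.08) from 12.0 to 8.20 FPKM. DAG1 was the receptor gene called without the block, 1 of the 9.

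The 11 genes examined from the dystrophin-associated complex, which ties dystroglycan to the cytoskeleton, were all tested; 3 rose and 3 fell (median change -0.002), beside 26.9% and 15.2% of all genes. SGCD, a sarcoglycan, was at 29.2 and 28.8 FPKM in line 1 controls, 18.3 and 19.4 with SUPT4H1 siRNA, 28.1 and 28.8 in line 2 controls, and 20.4 and 20.9 with SUPT4H1 siRNA. The 2 siRNA groups did not overlap, and SGCD fell by 0.52 (SE 0.04; adjusted p 1.16e-05 in limma, 0.00181 without the block), the single call of this list without the block. SGCE, another sarcoglycan, and the syntrophin SNTB1 fell by 0.25 and 0.31, and SGCB, the most abundant gene of the list, was at 38.1 and 38.0 FPKM on average. DMD, SSPN and DTNA rose by 0.30, 0.17 and 0.40. Levels of DMD and DTNA were low, from 1.12 to 1.55 and from 1.86 to 2.81 FPKM on average. In line 2 controls DMD was at 0.393 and 0.496 FPKM. Both genes passed within line 2 (adjusted p 3.76e-04 and 0.0056 in limma) and not within line 1 (0.0522 and 0.0603). The SSPN call was lost without any 1 of the line 1 samples (0.0927 to 0.099), with scaling by median ratios (0.0894), with no filter (0.0896) and with a block by line and replicate number (0.0801). The summed level of 6 skeletal muscle markers was 0.622 to 1.20 FPKM in control and 0.124 to 0.398 in SUPT4H1 siRNA samples, with MYOD1, MYOG, MYF5 and PAX7 at 0 in all samples. Their part in these results was not tested.

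Dystroglycan binds laminin through a sugar chain, and 15 of 17 genes for making it were tested. Of these, 4 rose, or 26.7% beside 26.9% of all genes, and 0 fell with line as block, and 0 were called without it, where 2 had an unadjusted p under 0.05 in limma. The median change of this list was 0.025, near that of all genes. Within line 1, 1 rose and 0 fell, a share called of 6.7% beside 30.7% of all genes. Within line 2, 2 rose and 1 fell, or 20.0% beside 42.9%. POMGNT1 and POMT1, enzymes of O-mannosyl glycan synthesis, rose by 0.22 and 0.09. DPM2 and DOLK, which serve the supply of dolichol-linked mannose, rose by 0.18 and 0.12. Within the lines, POMGNT1 passed in both, DPM2 in line 2 only, and POMT1 and DOLK in neither. The POMT1 call was lost in 6 of 8 fits without 1 sample (adjusted p up to 0.105), all but those without control replicate 1 of line 1 or SUPT4H1 siRNA replicate 1 of line 2, and with scaling by median ratios (0.147).

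The label of the cells was checked by markers. All 10 fibroblast markers had means above 1 FPKM over the 8 samples, but COL1A1 and COL1A2 had them only through SUPT4H1 siRNA samples. The 10 markers summed to 10995 to 12460 FPKM in control and 15534 to 21012 in SUPT4H1 siRNA samples. COL1A1 and COL1A2, which are in this sum, were listed at 0 in 4 and 5 samples, all 4 controls among them, so the sums are not comparable. Of the other 8, FBN1, PDGFRA, COL3A1 and PDGFRB fell, by 0.57, 0.27, 0.25 and 0.12 (adjusted p 2.47e-06, 4.67e-05, 4.80e-04 and 0.00206 in limma with line as block). THY1, DCN, LUM and VIM did not pass, with changes from -0.12 to -0.03. FN1, outside the list, was listed at 0 in 6 samples. These zeros carry the status HIDATA, not OK, and are not read as absence of the transcript. The 6 endothelial markers summed to 0.186 to 0.236 FPKM in control and 0.165 to 0.287 in SUPT4H1 siRNA samples, and the 6 keratinocyte and epithelial markers to 0.151 to 0.44 and 0.164 to 0.547, with KRT1 and KRT5 at 0. The 7 Schwann cell and melanocyte markers summed to 3.68 to 5.52 and 4.66 to 6.89 FPKM, mostly from MBP, with SOX10 at 0. The 6 leukocyte markers summed to 45.1 to 51.9 and 59.4 to 78.1 FPKM, mostly from CD68, a lysosomal protein, which rose by 0.48 (SE 0.09; adjusted p 0.00275 in limma). CD3E was at 0 and PTPRC, which marks leukocytes, at a mean of 0.143 FPKM in control and 0.123 in SUPT4H1 siRNA samples. The part of the fibroblast markers, CD68, MBP or CD14 in the laminin and nidogen values was not tested.

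Among the 7 tested genes, the profiles of LAMA4 and LAMC1 lay at the smallest distance, a measure that is small for genes that vary little. Likeness was the distance between log2(FPKM + 1) values centred on the gene's mean, over the 8 samples, which the genes share. That distance was 0.161 for LAMA4 and LAMC1, 0.216 for LAMB2 and LAMC1, 0.401 for LAMB1 and NID1, and 0.916 for NID1 and NID2. The Pearson r of the same pairs was 0.439, 0.571, 0.951 and 0.759, so the order by correlation was another one. Outside the set, the nearest genes to NID1 were KREMEN1 (0.082) and EPB41L4A-AS1 (0.086), and those to NID2 were PLSCR4 (0.19) and APCDD1 (0.195). The nearest to LAMB1 were TMEM18 (0.066) and RPL22 (0.067), to LAMB2 FAM46A (0.073) and AKT2 (0.084), and to LAMC1 SLC12A4 (0.051) and PPIL2 (0.052). The nearest to LAMA4 were WBP11 (0.046) and ICK (0.054), and to LAMA5 ALDH1B1 (0.085) and BMP2K (0.09).

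The genes differ widely in length along the genome, a property that the selection did not use. LAMB2 spans 12.1 kb and rose by 0.14, while LAMC1 spans 122.1 kb and rose by 0.11. NID1 spans 89.3 kb and LAMB1 79.6 kb, and these fell by 0.34 and 0.10. NID2 spans 64.4 kb (change 0.19, not called), LAMA5 58.3 kb (-0.07, not called) and LAMA4 146.8 kb (0.01, not called). LAMA2, the longest at 633.4 kb, was not in the main test and fell by 0.17 with rows of any status. Any relation between span and change was not tested.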

How the data were processed

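For every sample the authors deposited a table of FPKM values, each with the bounds of an interval and a status. Per the submitters' processing notes the build is hg19. Which aligner and quantification tool made the values, and whether strand was used, is not given in the sources used here. The 27032 rows per sample include 2239 of small RNAs, which were left out, and rows of one symbol were summed. Genes with a mean FPKM of at least 1 and the status OK in all samples were tested, 11434 in all; 12 genes were left out for their status. Values of log2(FPKM + 1) were tested with limma 3.58.1 (R 4.3.3), with a mean-variance trend, 2-sided, adjusted by Benjamini-Hochberg at a threshold of 0.05; the script was tested on simulated data. For genes of low FPKM the pseudocount of 1 makes changes look smaller. Line was a block (5 residual degrees of freedom); changes within lines came from 4 group means (4 residual degrees of freedom). The line pairs the samples because samples of a line share their cells: their deviations from the group means correlated at 0.883 to 0.900. Tables were made with pandas 2.3.3 and numpy 2.4.6 in Python 3.11.15, and plots with matplotlib 3.10.9.

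All 8 genes are named. From the partner lists, the genes called with line as block, the 4 largest changes and the most abundant gene are named. For likeness, the 2 nearest genes with a mean FPKM of at least 5 are named. Some genes of these lists are not reported here. The members and lists were chosen with earlier results of these data known. Alternatives were other pseudocounts, filters, scalings, blocks and fits without each sample.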

Additional observations from a re-analysis of the deposited data

Results flagged for a closer look

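The response differed between the lines, by the test of the line 2 change minus the line 1 change on the log2(FPKM + 1) scale in limma with Benjamini-Hochberg adjustment, for the genes given here. Among the laminins and nidogens these were NID2 (-0.41, adjusted p 0.00215) and LAMB2 (-0.24, adjusted p 0.00388), both of which rose in line 1 and had values near 0 in line 2. Among other basement membrane genes these were COL15A1 (-1.63, adjusted p 4.31e-07), NTN1 (-0.39, 0.00297), SPARC (-0.23, 0.00953) and COL18A1 (-0.20, 0.0284), with the line 2 change below that of line 1. SMOC2 also passed (0.79, 2.47e-04). With a pseudocount of 0.1 its difference was 0.28 with an adjusted p of 0.179 in limma, so a differing response is not shown for it. SPARC changed in opposite directions, by 0.13 in line 1 and -0.09 in line 2 (adjusted p 0.00851 and 0.0291 in limma). Among receptor and dystrophin complex genes these were ITGA7 (0.42, 0.00623), SSPN (-0.30, 0.00641) and SNTB1 (0.31, 0.0311). Not every gene called in this comparison is named. Of the genes tested, 7 of 14 other basement membrane, 4 of 9 receptor and 2 of 11 dystrophin complex genes were called, beside 9.85% of all genes. With no filter on FPKM the differences of COL18A1, SPARC and SNTB1 did not pass (adjusted p 0.0814, 0.0864 and 0.082), nor did that of COL18A1 with no mean-variance trend (0.0747).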

How the results depend on the processing

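With 2 lines and 2 replicates per group, the spread rests on few samples, and the number of fragments is not known. Without a replicate block for line, 407 genes were higher and 203 lower, and of the laminin and nidogen genes 0 were higher and 0 lower. With a replicate block by line and replicate number, 2591 genes were higher and 1442 lower; 1 of the 7 genes was higher instead of 2, since LAMB2 had an adjusted p of 0.0831. The numbers do not pair the samples: deviations within a line correlated at 0.052 to 0.103. The count of higher genes was also 1 with no filter on FPKM, with scaling by median ratios, and with rows of any status and that scaling. It was 1 to 3 in fits without 1 sample, with NID2 added without replicate 1 of either line 2 group. NID1, LAMB1 and LAMC1 were called in 8 of 8 such fits, and the line differences of NID2 and LAMB2 also in 8 of 8. Among partner genes, the calls of COL18A1, COL4A2 and POMT1 were also lost with no filter (adjusted p 0.0556, 0.0688 and 0.0514), and those of COL18A1, COL4A1, COL4A2 and POMT1 with the block by line and number (0.0559, 0.0672, 0.0664 and 0.0565).

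Within line 1, 2 genes instead of 1 were lower with a pseudocount of 0.1, with no filter or with no mean-variance trend (LAMA5 passing, adjusted p 0.0392, 0.0435 and 0.0149), and with scaling by median ratios (LAMB1 passing, 0.0196). With rows of any status and that scaling 3 were lower, LAMA2 included. Between the lines among controls, LAMA5 is not counted, since it passed the filter through line 2. LAMB2 was higher in line 2 at a mean FPKM of at least 5 too, and in 7 of 8 fits without 1 sample.

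Signs of these genes turned for values near 0. The settings with rows of any status, and fits without 1 sample for the changes within and between lines, were chosen after seeing the data. With scaling by median ratios, with or without rows of any status, LAMA4 was at -0.03 over both lines and -0.01 in line 2. In the same 2 settings LAMA5 was at -0.0013 and LAMB2 at -0.02 in line 2, and LAMC1 at 0.01 between the lines. In fits without 1 sample LAMA4 ranged from -0.01 to 0.02 over both lines (-0.0042 among them) and from -0.04 to 0.01 in line 1 (0.0046 among them), and NID2 from -0.06 to 0.02 in line 2 (0.0005 among them).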
